A study of Mus musculus with 16 samples.

Results

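The Fc receptors of 6 genes were examined, namely the activating Fc gamma receptors Fcgr1, Fcgr3 and Fcgr4, their shared signalling adaptor Fcer1g, the inhibitory receptor Fcgr2b, and Fcgrt, which encodes the neonatal Fc receptor. They were chosen by gene symbol from the array annotation, were 6 of the 22180 genes measured, and had 1 probe set each. The cells were dendritic cells grown from the bone marrow of male C57/B6 mice in GM-CSF (20 ng/ml) for 10 days, a culture that can hold macrophage-like cells beside dendritic cells, and were then treated for 24 h. The 4 groups of 4 arrays were cells given IMQ together with PA, cells given IMQ, cells given PA, and mock-treated cells. PA, read here as palmitic acid, a saturated fatty acid, was given at 0.5 mM as a complex with bovine serum albumin, at 6 molecules of PA to 1 of albumin. IMQ is read here as imiquimod, which activates TLR7, an endosomal sensor of RNA, and its dose is given as 3 uM in one place and 3 ug/ml in another. Whether mock-treated cells and cells given IMQ alone received albumin is not given in the sources used here.

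Fc receptors bind the constant part of antibodies, so that a cell can take up and respond to antibody-coated particles and immune complexes. In mice, FcγRI (Fcgr1), FcγRIII (Fcgr3) and FcγRIV (Fcgr4) signal through the common γ chain (Fcer1g), whose cytoplasmic ITAM motif is phosphorylated by Src-family kinases and recruits the kinase Syk. FcγRIIB (Fcgr2b) carries an ITIM motif that recruits the lipid phosphatase SHIP1 (Inpp5d) and dampens the same pathway, and the balance between both kinds of receptor is known to set how strongly dendritic cells and macrophages respond to immune complexes. The neonatal receptor FcRn (Fcgrt) pairs with beta-2-microglobulin, binds IgG in acidic endosomes and saves it from degradation, and it also routes immune complexes to antigen presentation.

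The windows around the starts of the 4 Fc gamma receptor genes are shown because these genes, 3 of which (Fcgr2b, Fcgr4 and Fcgr3) lie next to each other on chromosome 1, changed in different ways. Each runs from 250 bases before to 50 bases after the annotated start of the gene, in the gene's own direction, as RefSeq gives it for the mouse build GRCm38.p6 (all 6 genes were matched, and the first of 2 annotated starts was taken for Fcgr3). The windows are chr3:96293920-96294219 on the minus strand for Fcgr1, chr1:171018676-171018975 on the plus strand for Fcgr4, chr1:171059354-171059653 on the minus strand for Fcgr3, and chr1:170976022-170976321 on the minus strand for Fcgr2b. Capitals mark the motifs that were found.
Fcgr1: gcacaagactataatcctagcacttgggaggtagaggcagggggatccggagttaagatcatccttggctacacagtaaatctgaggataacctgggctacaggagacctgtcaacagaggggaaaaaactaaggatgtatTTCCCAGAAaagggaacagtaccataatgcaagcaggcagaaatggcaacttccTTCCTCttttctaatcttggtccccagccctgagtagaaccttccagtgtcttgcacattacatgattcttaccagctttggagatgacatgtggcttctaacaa
Fcgr4: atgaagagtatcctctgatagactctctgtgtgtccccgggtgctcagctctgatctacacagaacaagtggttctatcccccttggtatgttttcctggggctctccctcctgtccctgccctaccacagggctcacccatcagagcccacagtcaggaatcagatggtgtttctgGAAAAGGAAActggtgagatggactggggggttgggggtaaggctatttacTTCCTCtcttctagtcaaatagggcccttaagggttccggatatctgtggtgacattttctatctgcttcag
Fcgr3: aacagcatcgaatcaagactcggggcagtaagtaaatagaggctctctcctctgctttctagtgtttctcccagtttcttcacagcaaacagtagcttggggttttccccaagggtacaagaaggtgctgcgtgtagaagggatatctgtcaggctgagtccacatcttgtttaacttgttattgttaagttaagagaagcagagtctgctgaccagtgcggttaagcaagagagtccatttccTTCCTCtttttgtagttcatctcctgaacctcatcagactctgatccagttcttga
Fcgr2b: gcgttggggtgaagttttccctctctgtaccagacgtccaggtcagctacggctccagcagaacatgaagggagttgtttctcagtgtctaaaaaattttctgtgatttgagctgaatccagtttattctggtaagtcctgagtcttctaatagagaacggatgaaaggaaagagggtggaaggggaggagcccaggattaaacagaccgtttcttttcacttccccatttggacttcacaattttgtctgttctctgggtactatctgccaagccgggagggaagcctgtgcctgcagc

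The motifs searched on both strands were the GAS element bound by STAT factors (TTCNNNGAA), the ISRE bound by interferon regulatory factors (GAAA, any 2 bases, GAAA), a core of the PU.1 site (GAGGAA) and the AP-1 site (TGANTCA). The Fcgr1 window held TTCCCAGAA, which matches GAS, at position -109 from the start, and the reverse strand of the PU.1 core, TTCCTC, at -55. In the Fcgr4 window the ISRE match GAAAAGGAAA stood at -73 and TTCCTC at -22, and the Fcgr3 window held TTCCTC at -6. None of the 4 motifs was found in the Fcgr2b, Fcer1g or Fcgrt window, and the AP-1 site was in none of the 6. Among 27018 mouse promoter windows of the same length, 8.47% held GAS, 3.49% the ISRE, 28.3% the PU.1 core and 7.94% the AP-1 site. These are matches of letters, chosen with the results known, and binding was not measured.

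Values are log2 expression values as the submitters deposited them, and differences are therefore log2 changes. Arrays of one group correlated at 0.994 to 0.996 across genes. The labels call the replicates biological without naming animals or cultures, so the p-values cover the spread between these arrays alone, which may be technical. A gene was called where its Benjamini-Hochberg adjusted p in limma was under 0.05 over all 22180 genes. A gene was taken as silent below 4.93, a level under which 95% of 1409 odorant and other sensory receptor genes had their means, and all 6 Fc receptors lay above this level in every group. In RNA from mixed cultures, fewer cells of a type and less RNA per cell cannot be told apart.

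The arrays without IMQ were not uniform. Il6, an inflammatory cytokine gene, read 4.12, 3.999, 7.43 and 8.22 in the PA arrays, against 7.57, 7.90, 7.71 and 4.32 in the mock arrays. It therefore split 2 PA arrays and 1 mock array below 6 from 2 PA arrays and 3 mock arrays above it. Both groups with IMQ read between 11.86 and 12.27. For the 6 Fc receptors, results that involve PA alone or mock cells were therefore refitted with only the arrays of one of these sets. These fits are given where the result changed. Changes of single marker genes and list genes were not refitted in this way and are given with all arrays only.

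Marker genes moved with IMQ as well. All 7 measured dendritic cell markers lay above the silent level, and their mean ran from 8.52 to 8.58 in IMQ with PA, 8.52 to 8.60 in IMQ, 8.50 to 8.61 in PA and 8.62 to 8.72 in mock arrays. Itgax, which encodes the integrin CD11c that defines dendritic cells, averaged 9.30 in IMQ with PA, 9.39 in IMQ, 10.91 in PA and 11.09 in mock cells. IMQ raised 3 of these 7 markers over mock cells, namely Ccr7 (log2 change 1.02), Flt3 (0.53) and Zbtb46 (0.50), and lowered 4, with Itgax at -1.71. Over all genes, 17% rose and 17.9% fell with IMQ. The 10 measured macrophage and monocyte markers, 0 of them silent, had means of 10.48 to 10.54 in IMQ with PA, 10.50 to 10.53 in IMQ, 11.05 to 11.09 in PA and 11.06 to 11.15 in mock arrays. Within that list, Adgre1, which encodes the macrophage antigen F4/80, averaged 11.24 in IMQ with PA, 11.64 in IMQ, 10.14 in PA and 10.09 in mock cells, while Mrc1, the mannose receptor, averaged 7.62, 6.56, 10.23 and 10.18 in the same groups. Mertk, a receptor for the uptake of dead cells, averaged 8.15 in IMQ with PA, 7.65 in IMQ, 9.69 in PA and 9.73 in mock cells. Of the 10 measured macrophage and monocyte markers, 3 rose and 7 fell with IMQ, against 17% and 17.9% of all genes. Adding PA to IMQ raised 3 and lowered 5 of them, against 11.6% and 9.44% of all genes. Macrophages also express Fc receptors. The part of changes in cell types in the Fc receptor results was not tested. Of the markers of other cells, 4 of 9 neutrophil genes, 7 of 10 mast cell, basophil and eosinophil genes, 3 of 4 measured B cell genes, 7 of 8 T and NK cell genes, 1 of 4 plasmacytoid dendritic cell genes and 1 of 2 erythroid genes were silent in all groups. Of the 9 neutrophil genes, IMQ raised 2 and lowered 2. Of the 4 plasmacytoid genes it raised 2 and lowered 0. It also raised 3 of the 10 mast cell, basophil and eosinophil genes and 1 of the 2 erythroid genes. S100a8, a calcium-binding protein of neutrophils and monocytes, rose by 1.52, whereas the neutrophil markers S100a9 (-0.71) and Cxcr2 (-0.52) fell to below the silent level. Bst2, an interferon-induced membrane protein that marks plasmacytoid dendritic cells, rose by 1.07, whereas Siglech of the same list was silent in all groups. The plasmacytoid list had means of 7.30 to 7.44 in IMQ with PA, 7.42 to 7.51 in IMQ, 6.92 to 7.14 in PA and 7.06 to 7.22 in mock arrays.

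IMQ changed all 6 Fc receptor genes and did so in both directions. Relative to mock cells, Fcgr4, Fcgr1, Fcer1g and Fcgr2b rose and Fcgrt and Fcgr3 fell, so 6 of 6 were called, where 34.8% of all genes were called in this comparison (17% higher and 17.9% lower). Adding PA to IMQ changed 5 of the 6, raising Fcgr4 and Fcgr3 and lowering Fcgr1, Fcgr2b and Fcer1g, where 21.1% of all genes were called (11.6% higher and 9.44% lower). The 6 calls for IMQ versus mock also held with the 3 mock arrays at or above the Il6 value of 6 alone. They held with the 1 mock array below it too, in a fit that assumes that this array varies like those of the other groups. PA alone changed 1 of the 6, Fcgrt, which rose, where 1.49% of all genes were called (1.05% higher and 0.442% lower). Values of the 16 arrays are given below by the role of each receptor.

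**Figure D1:**
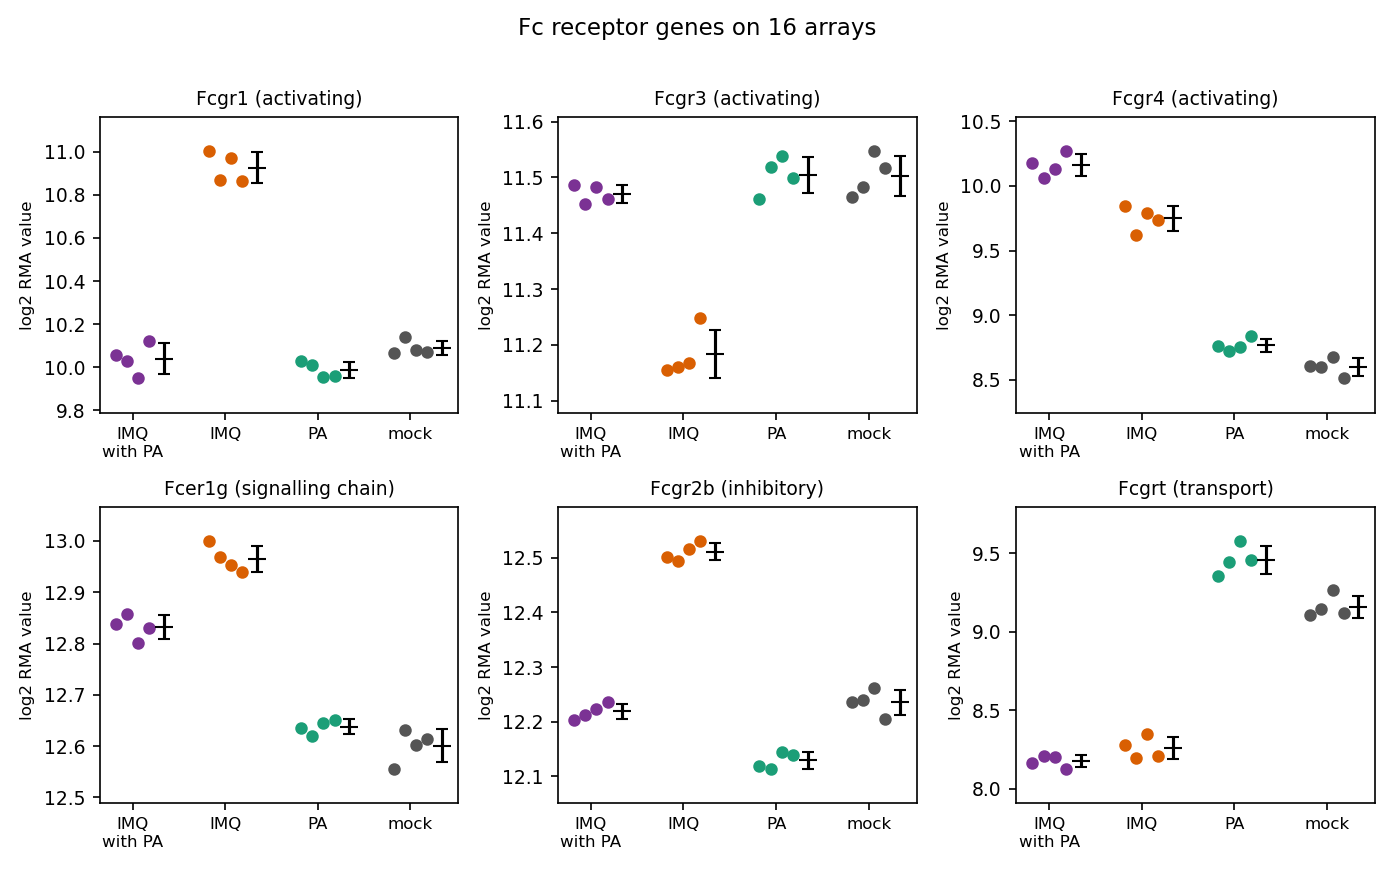
Deposited log2 values (vertical axis, log2) of the 6 Fc receptor genes on each array, with 4 points per group in the order IMQ with PA, IMQ, PA and mock, and the mean ± SD beside them. Fcgr1 is high in the IMQ arrays (10.87 to 11.003) and lies between 9.95 and 10.14 in the 3 other groups, whereas Fcgr4 is highest in IMQ with PA and Fcgrt is lower in both groups with IMQ.

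Fcgr1 encodes the high-affinity activating IgG receptor FcγRI, which binds single IgG molecules. It read 10.06, 10.03, 9.95 and 10.12 in IMQ with PA, 11.003, 10.87, 10.97 and 10.87 in IMQ, 10.03, 10.01, 9.96 and 9.96 in PA, and 10.07, 10.14, 10.08 and 10.07 in mock arrays. The 4 IMQ arrays stood above all others, and the arrays of IMQ with PA overlapped those of mock and of PA. Fcgr1 averaged 10.93 ± 0.07 in IMQ and 10.09 ± 0.03 in mock cells (SD, n = 4 each), a log2 change of 0.84 ± 0.05 (SE) or 1.79-fold (adjusted p = 8.04e-10, limma). With PA added to IMQ it averaged 10.04 ± 0.07, which was 54.0% of the level in IMQ alone (log2 change -0.89 ± 0.05, adjusted p = 2.09e-09, limma). The difference between IMQ with PA and mock cells was -0.05 (95% interval -0.16 to 0.05, adjusted p = 0.488, limma), and that between IMQ with PA and PA was 0.05 (-0.05 to 0.16, adjusted p = 0.485, limma). PA alone gave a difference from mock cells of -0.10 (-0.21 to 0.00, adjusted p = 0.358, limma), although the arrays of PA and mock did not overlap.

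Fcgr4 encodes FcγRIV, an activating receptor of mice with intermediate affinity for IgG2a and IgG2b. Its values were 10.18, 10.06, 10.13 and 10.27 in IMQ with PA, 9.85, 9.62, 9.79 and 9.74 in IMQ, 8.76, 8.72, 8.75 and 8.84 in PA, and 8.61, 8.60, 8.67 and 8.51 in mock arrays. No group overlapped another, and IMQ with PA was the highest. IMQ raised Fcgr4 2.22-fold over mock cells (log2 change 1.15 ± 0.06, adjusted p = 1.74e-10, limma). Adding PA to IMQ raised it a further 1.33-fold over IMQ alone (0.41 ± 0.06, adjusted p = 8.33e-05, limma), so that IMQ with PA stood 2.95-fold above mock cells (adjusted p = 4.01e-12, limma). With PA alone the difference from mock cells was 0.17 ± 0.06 (95% interval 0.04 to 0.30) and was not called (adjusted p = 0.197, limma). It was called with a variance trend and robust moderation (adjusted p = 0.0457, limma).

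Fcgr3 encodes FcγRIII, a low-affinity activating receptor for immune complexes. It read 11.49, 11.45, 11.48 and 11.46 in IMQ with PA, 11.16, 11.16, 11.17 and 11.25 in IMQ, 11.46, 11.52, 11.54 and 11.50 in PA, and 11.47, 11.48, 11.55 and 11.52 in mock arrays. The IMQ arrays were the lowest, and the 3 other groups overlapped. Fcgr3 fell to 80.1% of mock cells with IMQ (log2 change -0.32 ± 0.04, adjusted p = 6.48e-06, limma) and stood 1.22-fold higher in IMQ with PA than in IMQ alone (0.29 ± 0.04, adjusted p = 5.37e-05, limma). Between IMQ with PA and mock cells the difference was -0.03 (95% interval -0.12 to 0.05, adjusted p = 0.597, limma). Between PA and mock cells it was 0.00 (-0.08 to 0.09, adjusted p = 0.993, limma). Fcgr3 and Fcgr2b encode closely related extracellular domains, and how far the probes of each also read RNA of the other was not tested.

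Fcer1g encodes the adaptor through which all 3 of these receptors signal and without which they do not reach the cell surface in normal amounts. Its values were 12.84, 12.86, 12.80 and 12.83 in IMQ with PA, 12.999, 12.97, 12.95 and 12.94 in IMQ, 12.63, 12.62, 12.65 and 12.65 in PA, and 12.56, 12.63, 12.60 and 12.61 in mock arrays. Both groups with IMQ lay above both groups without it. The log2 change with IMQ was 0.36 ± 0.04, or 1.29-fold (adjusted p = 6.42e-07, limma), and IMQ with PA was 1.14-fold above PA (0.19 ± 0.04, adjusted p = 0.00046, limma). With PA added to IMQ, Fcer1g came to 91.2% of IMQ alone (-0.13 ± 0.04, adjusted p = 0.0163, limma). This last call was lost when replicate 3 of IMQ with PA was left out (-0.12, adjusted p = 0.0509, limma), when array medians were set equal (adjusted p = 0.073), when quantile normalisation was repeated (adjusted p = 0.0679) and when only both groups compared were fitted (adjusted p = 0.082). The highest value in the whole table was 13.5, so Fcer1g lay close to the top of the scale, where arrays understate change.

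Fcgr2b, the inhibitory receptor, read 12.20, 12.21, 12.22 and 12.24 in IMQ with PA, 12.50, 12.49, 12.52 and 12.53 in IMQ, 12.12, 12.11, 12.14 and 12.14 in PA, and 12.24, 12.24, 12.26 and 12.20 in mock arrays. As for Fcgr1, only the IMQ arrays stood clearly above the rest. Fcgr2b averaged 12.51 ± 0.02 in IMQ and 12.24 ± 0.02 in mock cells (SD, n = 4 each), a 1.21-fold rise (log2 change 0.28 ± 0.04, adjusted p = 8.90e-06, limma). The mean in IMQ with PA was 81.7% of that in IMQ alone (-0.29 ± 0.04, adjusted p = 1.36e-05, limma). Its difference from mock cells was -0.02 (95% interval -0.09 to 0.06, adjusted p = 0.781, limma). Every PA array lay below every mock array, but the difference of -0.11 ± 0.04 was not called (95% interval -0.18 to -0.03, adjusted p = 0.174, limma) except with a variance trend and robust moderation (adjusted p = 0.000708, limma).

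Fcgrt, the neonatal receptor, is not a signalling receptor like the others, and its values separated the arrays with IMQ from those without. It read 8.16, 8.21, 8.20 and 8.13 in IMQ with PA, 8.28, 8.20, 8.35 and 8.21 in IMQ, 9.36, 9.45, 9.57 and 9.45 in PA, and 9.11, 9.15, 9.26 and 9.12 in mock arrays. The arrays of both groups with IMQ overlapped and lay below all arrays without it, and the PA arrays lay above the mock arrays. IMQ lowered Fcgrt to 53.5% of mock cells (log2 change -0.90 ± 0.06, adjusted p = 1.43e-09, limma), and IMQ with PA stood at 41.1% of PA (-1.28 ± 0.06, adjusted p = 1.80e-11, limma). The difference between IMQ with PA and IMQ was -0.08 (95% interval -0.20 to 0.04, adjusted p = 0.350, limma). PA alone raised Fcgrt 1.23-fold over mock cells (0.30 ± 0.06, adjusted p = 0.0111, limma). Among arrays with Il6 below 6 that difference was 0.29 (adjusted p = 0.472, limma, 2 PA and 1 mock array), among the others it was 0.34 (adjusted p = 0.0626, limma, 2 PA and 3 mock arrays), and with only both groups fitted it was 0.30 (adjusted p = 0.092, limma), so the call did not hold in these fits. B2m, which encodes the partner chain of FcRn, averaged 13.41 in IMQ and 13.33 in mock cells, near the top of the scale, and was not called (adjusted p = 0.0732, limma).

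**Figure D2:**
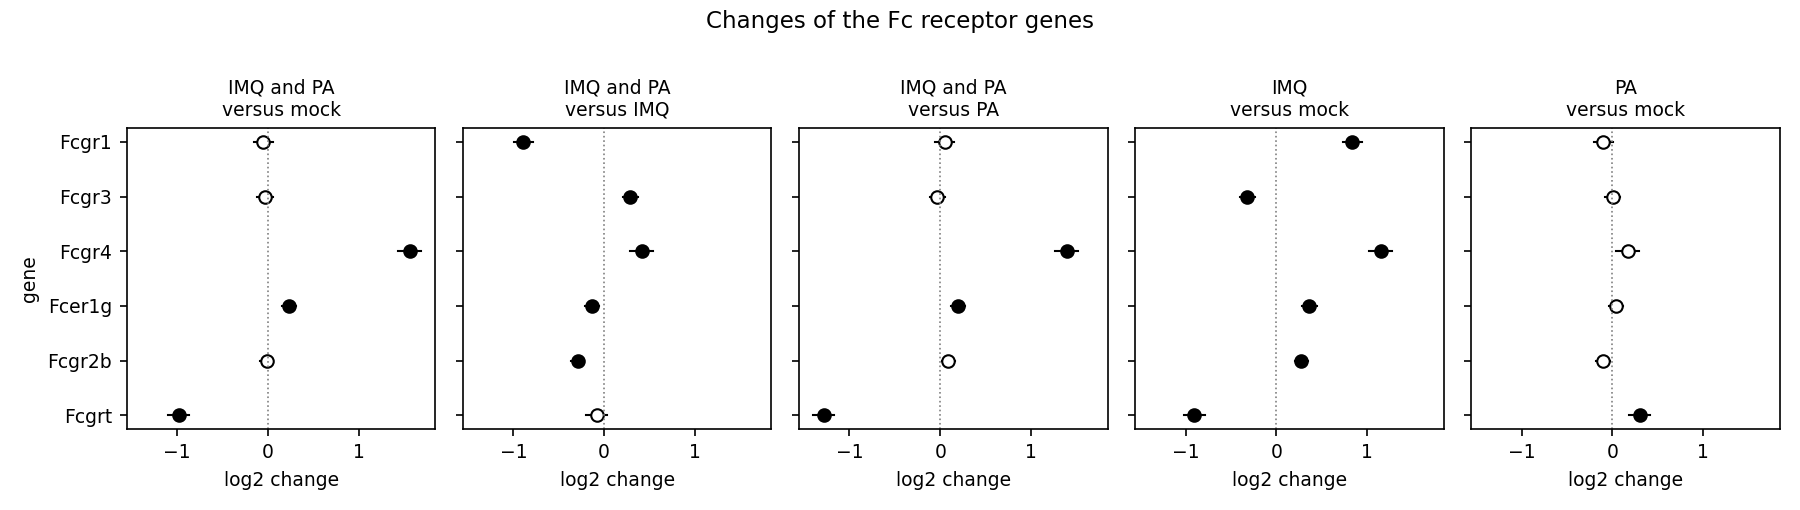
Log2 change (horizontal axis) of each Fc receptor gene in 5 comparisons between groups, with points for the estimate and bars for its 95% interval, filled where limma called the gene. Fcgr1, Fcgr2b and Fcer1g lie right of 0 for IMQ versus mock and left of 0 for IMQ and PA versus IMQ, while Fcgr4 lies right of 0 in both and Fcgr3 has the opposite signs of Fcgr1.

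Whether arrays of the groups overlapped gave a count that does not rest on the model. All 6 genes had no overlap between IMQ and mock arrays (34.2% of all genes), and 5 had none between IMQ with PA and IMQ (23.5% of all genes). Between PA and mock arrays 4 genes, Fcgr1, Fcgr4, Fcgr2b and Fcgrt, had no overlap, where 9.92% of all genes had none. Between IMQ with PA and PA, 3 genes were called, where 35.3% of all genes were (16.8% higher and 18.5% lower). Of these, Fcgr4 and Fcer1g rose and Fcgrt fell. Fcgr2b was 0.09 ± 0.04 higher there, with no overlap (as for 35.7% of all genes), and was not called (adjusted p = 0.0604, limma), although it was in 3 alternatives (adjusted p = 0.000211 to 0.0188). The same 3 genes were called between IMQ with PA and mock cells (36.5% of all genes, 18.4% higher and 18.1% lower), with Fcgrt at 50.6% and Fcer1g at 1.17-fold. Fcgr1, Fcgr3 and Fcgr2b were not called there.

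The interaction, the PA change in cells with IMQ minus the PA change in cells without it, was called for 5 of the 6 genes, where 13.6% of all genes were called (6.58% above 0 and 7.01% below). It was -0.79 ± 0.07 for Fcgr1 (adjusted p = 1.17e-06, limma), -0.38 ± 0.08 for Fcgrt (adjusted p = 0.00331) and -0.19 ± 0.05 for Fcgr2b (adjusted p = 0.0206). The Fcgr2b call was lost with repeated quantile normalisation (-0.15, adjusted p = 0.066, limma). The interaction was positive for Fcgr3 (0.29 ± 0.06, adjusted p = 0.00238, limma). For Fcgrt it joined a rise with PA alone to a difference near 0 in the presence of IMQ. For Fcer1g it was -0.17 ± 0.05 (adjusted p = 0.0421, limma), a call that was lost in 18 of 24 alternatives, most of those that left out 1 array among them. For Fcgr4 it was 0.24 ± 0.08 and was not called (adjusted p = 0.0735, limma), although it was in 4 of 24 alternatives, among them the one without replicate 2 of IMQ with PA (adjusted p = 0.0484). With only the arrays without IMQ whose Il6 was below 6 (2 PA and 1 mock array), the interaction was called for 1 of the 6, Fcgr1, and for 1200 of all 22180 genes, against 3015 with all arrays. With only those at or above 6 it was called for 3 of the 6 and for 1984 of all genes. The genes that lost the call had interactions of similar size, for example -0.37 for Fcgrt and 0.31 for Fcgr3 with Il6 below 6.

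The activating receptors and their adaptor were then set against the inhibitory receptor within each array, by subtracting the Fcgr2b value from that of every other gene before the fit. This gives the change of a gene relative to that of Fcgr2b, since levels of different probe sets cannot be compared. Fcgr2b itself read 12.11 to 12.53, toward the top of the scale, where arrays can understate change. How far this affects the changes relative to Fcgr2b was not tested. IMQ raised Fcgr4 by 0.87 ± 0.06 (adjusted p = 1.73e-09, limma) and Fcgr1 by 0.56 ± 0.05 (adjusted p = 1.30e-07) relative to Fcgr2b on the log2 scale, and Fcgr3 changed by -0.60 ± 0.04 (adjusted p = 2.75e-09). Fcer1g moved by 0.09 (95% interval 0.00 to 0.17) relative to Fcgr2b and was not called (adjusted p = 0.0637, limma), although it was in 4 of 17 alternatives, among them the one without replicate 4 of IMQ (adjusted p = 0.0481). Thus 3 of 4 were called. A change of Fcgr2b itself moves every gene on this scale, on which 60.8% of all genes were called, 7.21% higher and 53.6% lower, so a fall against Fcgr2b, as that of Fcgr3, was common here and a rise was not.

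Adding PA to IMQ changed all 4 relative to Fcgr2b, where 60.3% of all genes were called (58.3% higher and 2.01% lower), so a gain against Fcgr2b was common among all genes in this comparison and a loss was not. Fcgr4 gained 0.70 ± 0.06 (adjusted p = 5.98e-08, limma), Fcgr3 gained 0.58 ± 0.04 (adjusted p = 1.10e-08) and Fcer1g gained 0.16 ± 0.04 (adjusted p = 0.00326), whereas Fcgr1 lost ground with a change of -0.60 ± 0.05 (adjusted p = 1.54e-07). On single arrays, Fcgr4 minus Fcgr2b, expressed relative to the mean of the mock arrays, was 1.61, 1.48, 1.55 and 1.67 in IMQ with PA, 0.98, 0.76, 0.91 and 0.84 in IMQ, 0.28, 0.25, 0.24 and 0.34 in PA, and 0.01, 0.00, 0.05 and -0.06 in mock arrays. The 4 groups were separate and in that order. Fcgr1 minus Fcgr2b on the same scale was 0.00, -0.04, -0.13 and 0.03 in IMQ with PA, 0.65, 0.52, 0.60 and 0.48 in IMQ, 0.06, 0.04, -0.04 and -0.04 in PA, and -0.02, 0.05, -0.04 and 0.01 in mock arrays, so only IMQ stood apart.

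**Figure D3:**
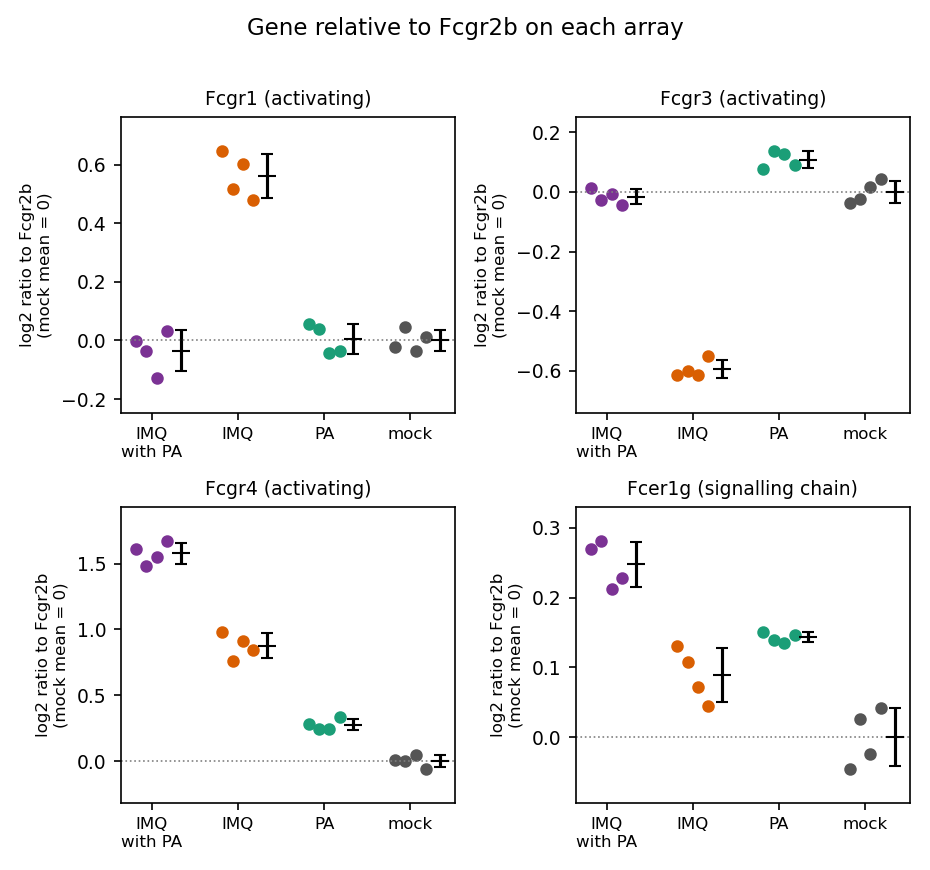
Value of Fcgr1, Fcgr3, Fcgr4 and Fcer1g minus that of Fcgr2b on the same array, relative to the mean of the mock arrays (vertical axis, log2), with 4 points per group and the mean ± SD beside them. Fcgr4 gained most against Fcgr2b in IMQ with PA (1.48 to 1.67), Fcgr1 in IMQ alone (0.48 to 0.65), and Fcgr3 was lowest in IMQ (-0.62 to -0.55).

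With PA alone, Fcgr4 (0.28 ± 0.06, adjusted p = 0.00541, limma) and Fcer1g (0.14 ± 0.04, adjusted p = 0.0233) rose relative to Fcgr2b, so 2 of 4 were called (18.7% of all genes, 18.2% higher and 0.451% lower). Fcgr3 differed by 0.11 ± 0.04 (adjusted p = 0.0659) and Fcgr1 by 0.00 (95% interval -0.10 to 0.11, adjusted p = 0.963, limma). Neither call held within the Il6 sets, which have fewer arrays. The Fcgr4 change was 0.32 (adjusted p = 0.316) with Il6 below 6, where 1 mock array was left, and 0.27 (adjusted p = 0.0665) with the others, and that of Fcer1g was 0.10 and 0.16. The Fcer1g call was lost in 9 of 17 alternatives, among them those without replicate 1 (adjusted p = 0.0684) or 3 (0.0533) of mock and without replicate 1 (0.0521), 2 (0.05003) or 4 (0.0509) of PA. IMQ with PA relative to PA gave 3 of 4 calls (38% of all genes, 12.3% higher and 25.6% lower), with Fcgr4 at 1.30 ± 0.06 (adjusted p = 1.48e-11, limma), Fcgr3 at -0.12 ± 0.04 (adjusted p = 0.0195) and Fcer1g at 0.10 ± 0.04 (adjusted p = 0.0496). The Fcer1g call was lost in 14 of 17 alternatives, and that of Fcgr3 in both Il6 sets, with only the groups compared (adjusted p = 0.0541), and without replicate 4 of IMQ with PA (adjusted p = 0.0506) or replicate 2 of PA (0.0566).

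Relative to mock cells, IMQ with PA had 2 of 4 calls (36.2% of all genes, 19.4% higher and 16.9% lower). Fcgr4 stood 2.98-fold higher against Fcgr2b than in mock cells (log2 change 1.58 ± 0.06, adjusted p = 1.54e-12, limma), and Fcer1g 0.25 ± 0.04 higher (adjusted p = 8.75e-05). Fcgr1 (-0.03, 95% interval -0.14 to 0.07) and Fcgr3 (-0.02, -0.10 to 0.07) were not called (adjusted p = 0.677 and 0.811, limma). When quantile normalisation was repeated, both fell (Fcgr1 by 0.18, adjusted p = 0.00915, and Fcgr3 by 0.13, adjusted p = 0.018, limma). The interaction on this scale was called for 3 of 4 (24.3% of all genes, 21.6% above 0 and 2.67% below), at -0.60 ± 0.07 for Fcgr1 (adjusted p = 2.14e-05, limma), 0.47 ± 0.06 for Fcgr3 (adjusted p = 1.75e-05) and 0.43 ± 0.08 for Fcgr4 (adjusted p = 0.00101). That of Fcgr4 was 0.38 and no longer called with Il6 below 6 (adjusted p = 0.0886, limma, 1 mock array). For Fcer1g it was 0.02 (adjusted p = 0.867, limma).

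The list of other Fc-binding receptors and their partners also held B2m. Of 13 measured genes, 7 lay below the silent level in every group, as did 8614 of all 22180 genes. Among the 7 were Fcer1a and Ms4a2, subunits of the high-affinity IgE receptor, and Fcer2a, the low-affinity IgE receptor. Where 17% of all genes rose and 17.9% fell with IMQ, 3 of the 13 rose and 2 fell (median 0.02, against 0.01 over all genes). Of these, Fcrl1, an Fc receptor-like protein of B cells, averaged 4.76, below the silent level, in IMQ and 5.39 in mock cells, and Pigr, which carries IgA and IgM across epithelia, was below it in both. Trim21, a cytosolic receptor that marks antibody-coated particles for degradation, rose by 1.15 ± 0.07 (adjusted p = 7.20e-10, limma), and Fcrlb, an intracellular Fc receptor-like protein, by 0.27 ± 0.06 (adjusted p = 0.00313). Fcrls, an Fc receptor-like gene of mouse macrophages and microglia, had the widest change of this list at -2.18 ± 0.09 (adjusted p = 7.63e-12, limma), and PA added to IMQ gave a further -0.27 (adjusted p = 0.0355). No other gene of the list was called with PA added to IMQ, where 21.1% of all genes were called. PA alone changed 0 of the 13 in limma after adjustment (1.49% of all genes), with 1 higher and 2 lower at an unadjusted p under 0.05.

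Genes of the ITAM pathway moved both ways with IMQ. Of 21 measured genes, 11 rose and 9 fell with IMQ (median 0.20, against 0.01 over all genes, of which 3766 rose and 3961 fell). Syk, the kinase recruited by the γ chain, rose by 0.59 ± 0.04 (adjusted p = 1.27e-08, limma), and the adaptor Lcp2 (SLP-76) by 1.28 ± 0.04 (adjusted p = 1.64e-12). Lat2, an adaptor of myeloid and B cells, changed by -2.41 ± 0.06 (adjusted p = 8.85e-14, limma) and Tyrobp, which encodes the ITAM adaptor DAP12, by -0.79 ± 0.05 (adjusted p = 2.99e-09). PA added to IMQ raised 3 of the 21 and lowered 13 (median -0.27, against -0.02 over all genes, of which 2583 rose and 2093 fell). Fgr, a Src-family kinase of myeloid cells, showed the widest of these changes at -1.60 ± 0.06 (adjusted p = 1.47e-11, limma). Vav3, a guanine nucleotide exchange factor downstream of Syk, was higher by 1.00 ± 0.06 (adjusted p = 1.00e-08), and Syk was lower, at -0.13 ± 0.04 (adjusted p = 0.0379, limma). PA alone raised 2 of the 21, Vav3 (0.45 ± 0.06, adjusted p = 0.0012, limma) and Lcp2 (0.39 ± 0.04, adjusted p = 0.000185), where 1.05% of all genes rose. Whether these 2 calls hold within the Il6 sets was not tested.

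A list of 10 measured genes of inhibitory (ITIM) signalling included Inpp5d, whose product Fcgr2b recruits. The list was not limited to partners of Fcgr2b and also held Csk, Pag1 and Ptprc. With IMQ, 4 rose and 4 fell (median -0.01), where 17% of all genes rose and 17.9% fell (median 0.01), with Inpp5d, which encodes SHIP1, at -0.81 ± 0.04 (adjusted p = 1.23e-10, limma) and Ptpn6, which encodes the tyrosine phosphatase SHP-1, at 0.22 ± 0.04 (adjusted p = 0.000551). Between IMQ with PA and IMQ, 6 fell and 0 rose (median -0.31), where 9.44% of all genes fell and 11.6% rose (median -0.02). These included Pag1, a membrane adaptor that anchors Csk, at -0.88 ± 0.06 (adjusted p = 5.07e-08, limma), Ptpn6 at -0.54 ± 0.04 (adjusted p = 1.18e-07) and Inpp5d at -0.34 ± 0.04 (adjusted p = 1.27e-05). PA alone changed 0 of the 10 in limma, also at an unadjusted p under 0.05. Fcgr2b and Inpp5d thus moved in opposite directions with IMQ, while both were lower in IMQ with PA than in IMQ.

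**Figure D4:**
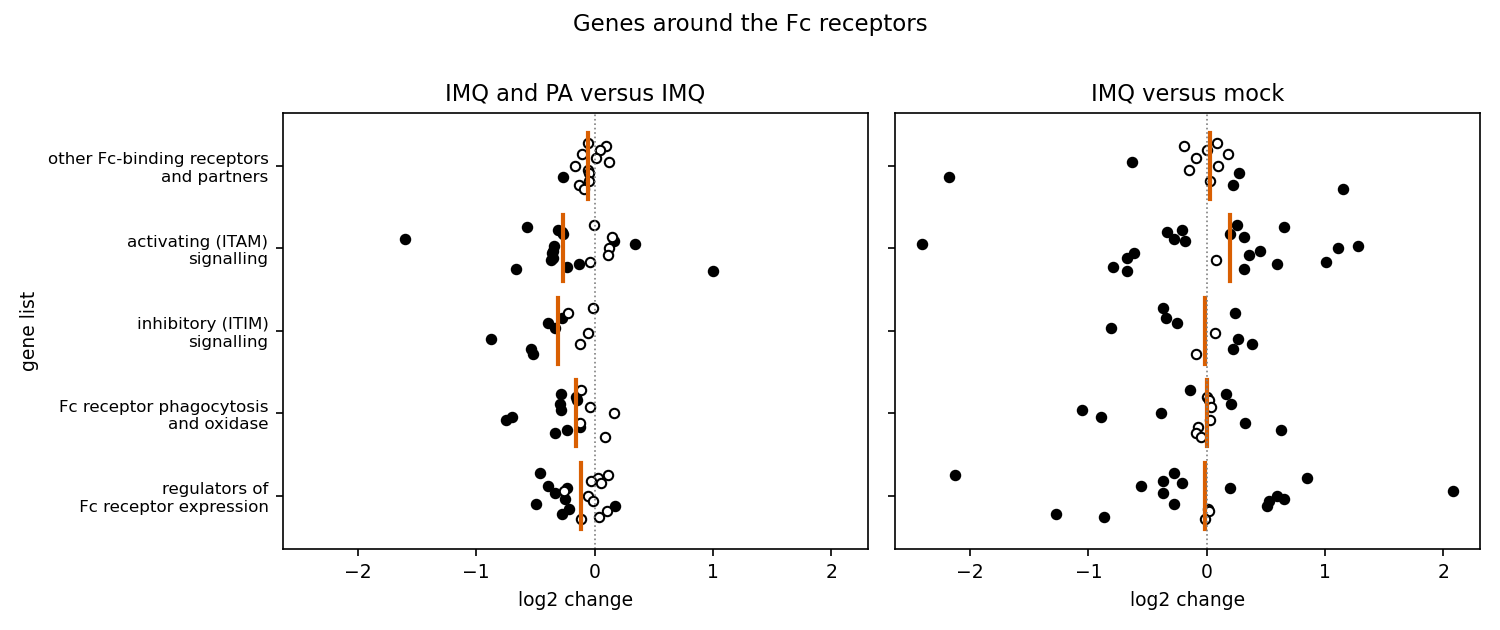
Log2 change (horizontal axis) of every measured gene of 5 lists around the Fc receptors, for IMQ and PA versus IMQ (left) and IMQ versus mock (right), with filled points for genes called by limma and an orange line at the median of each list. In the left panel the ITIM and ITAM lists have medians of -0.31 and -0.27, while in the right panel called genes of each list lie on both sides of 0.

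Of 15 measured genes of phagocytosis and the NADPH oxidase, which carry out uptake and killing after Fc receptor ligation, IMQ raised 4 and lowered 4 (median 0.00), against 17% and 17.9% of all genes. Rac2, a small GTPase of the oxidase, rose by 0.63 ± 0.04, and Cybb, its catalytic subunit, by 0.21 ± 0.04, whereas Dock2, which activates Rac proteins, changed by -1.06 ± 0.04. With PA added to IMQ, 10 fell and 0 rose (median -0.15), against 9.44% and 11.6% of all genes, with Ncf1, the p47phox subunit, at -0.75 ± 0.04 (adjusted p = 1.95e-09, limma). PA alone changed 0 of the 15 in limma after adjustment, with 2 higher and 0 lower at an unadjusted p under 0.05.

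Among 19 measured regulators of Fc receptor expression, 7 rose and 9 fell with IMQ (median -0.01), against 17% and 17.9% of all genes. Irf8, a transcription factor of dendritic cells and monocytes, rose by 0.52 ± 0.04 (adjusted p = 6.52e-08, limma). Spi1, which encodes PU.1, fell by 0.27 (SE 0.06, adjusted p = 0.00144, limma), and Cebpa, another transcription factor of myeloid cells, fell by 2.13. Il10, which encodes an anti-inflammatory cytokine, averaged 6.17 in IMQ and 4.08, below the silent level, in mock cells. PA added to IMQ raised 1 of the 19 and lowered 8 (median -0.11), against 11.6% and 9.44% of all genes. Stat3, a signal transducer of Il10 and other cytokines, was the gene that rose (0.17 ± 0.04, adjusted p = 0.00614, limma), and Spi1 was lower, at -0.49 ± 0.06 (adjusted p = 1.22e-05). The complement receptor C5ar1 was lower as well with PA added (-0.46 ± 0.06), and it was the 1 gene of this list that PA alone raised (0.30 ± 0.06, adjusted p = 0.0181, limma). Over all genes, 1.05% rose with PA alone. Whether the C5ar1 call for PA alone holds within the Il6 sets was not tested.

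The genes whose values followed those of each receptor most closely over the 16 arrays were taken from 12065 candidates by Pearson correlation, as a description that rests largely on the differences between the same 4 groups. For Fcgr1 they were Fyb (r = 0.98), Ch25h (0.98) and Itgal (0.98). Fyb, a cytosolic adaptor, averaged 8.50 in IMQ with PA, 9.58 in IMQ, 8.27 in PA and 8.42 in mock cells, so it too stood highest in IMQ. Fyb (0.98) also led the list of Fcgr2b, before Blnk (0.98) and Acp5 (0.98). Fcgr4 was followed by Dusp1 (0.9965), Uhrf1bp1l (0.9958) and Metap1 (0.9957), Fcgr3 by Ost4 (0.98), Atf3 (0.98) and Gpr155 (0.97), Fcer1g by Nupr1 (0.99), Cdc42ep2 (0.99) and Spata13 (0.99), and Fcgrt by Laptm5, Pcyox1 and Sort1 (0.99 each).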

How the data were processed

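Total RNA (200 ng per sample) of 16 samples was hybridised to 1-colour Affymetrix mouse arrays, per the labels. The deposited log2 values are the authors' RMA output, per the submitters' processing notes, which name RMA and affy, and versions and the genome build are not given in the sources used here. RMA subtracts background, gives all arrays one distribution of values and combines probes into probe set values, which can narrow differences. The 41345 probe sets had values of 0.628 to 13.5. Precision rests on the 4 arrays in each group.

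The platform annotation supplied gene symbols. Of the probe sets, 23521 had 1 symbol, and 1814 with several and 16010 with none were left out. The probe set with the highest mean stood for each gene. limma 3.58.1 (R 4.3.3) was fitted to 4 group means over all 16 arrays (eBayes, 12 residual and 2.96 prior degrees of freedom, two-sided, Benjamini-Hochberg over 22180 genes), and again to the values minus that of Fcgr2b (22179 genes). Pathway genes were named as the called members with up to 3 rises and up to 3 falls by size, plus preset genes. The steps were tested on simulated data.

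The members and lists were chosen with earlier results of these data known. Alternatives were repeated quantile normalisation, equal array medians, leaving out dim genes, a variance trend with robust moderation, fitting only the groups compared, the replicate number as a block, the mean of a gene's probe sets, leaving out each array in turn, and only arrays without IMQ on one side of an Il6 value of 6.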

Additional observations from a re-analysis of the deposited data

Results flagged for a closer look

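In the IMQ group, Fcgr3 of replicate 4 (11.25) stood apart from the other 3 arrays (11.16 to 11.17), with a gap of 0.864 of the group's range. This was 1 of 44 groups of 4 arrays checked, and chance alone gives about 1 in 20. Without that array the fall of Fcgr3 with IMQ remained called by limma.

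The effect of PA differed between cells with and without IMQ for several genes by limma's test of the interaction. It was -0.79 for Fcgr1, 0.29 for Fcgr3, -0.17 for Fcer1g, -0.19 for Fcgr2b and -0.38 for Fcgrt on the log2 scale. Relative to Fcgr2b on the same array it was -0.60 for Fcgr1, 0.47 for Fcgr3 and 0.43 for Fcgr4. Before Fcgr2b was subtracted, the Fcer1g call was lost in 18 of 24 alternatives and the Fcgr2b call in 3. Those of Fcgr3 and Fcgrt were lost in 1 each. Relative to Fcgr2b, the call of Fcgr4 was lost in 1.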

How the results depend on the processing

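The calls of Fcgr1, Fcgr3, Fcgr4, Fcer1g, Fcgr2b and Fcgrt for IMQ versus mock kept their direction and stayed past the threshold in every alternative. So did those of Fcgr1, Fcgr3, Fcgr4 and Fcgr2b for IMQ and PA versus IMQ. In these 2 comparisons, in that order, Fcgr1 lay at 0.79 to 0.86 and -0.92 to -0.86. Fcgr4 lay at 1.11 to 1.24 and 0.37 to 0.44. The count of Fc receptors called for PA versus mock was 1, and became 0 with arrays on either side of the Il6 value and with only the groups compared, and 3 with the variance trend. The interaction count of 5 became 3 with Il6 at or above 6, a set with fewer arrays, and Fcgr2b lost its call there (-0.19, adjusted p = 0.0961, limma). With Il6 below 6, where 1 mock array was left, the interaction of Fcgr2b was -0.20. The Fcgr2b call was also lost with repeated quantile normalisation of all arrays (-0.15, adjusted p = 0.066, limma). Against Fcgr2b, the count for PA versus mock (2) became 0 in both Il6 sets and 1 with repeated quantile normalisation or only the groups compared. That for IMQ and PA versus PA (3) became 1 in both Il6 sets and with only the groups compared. That for IMQ and PA versus mock (2) became 1 with Il6 below 6 and 4 with repeated quantile normalisation. Leaving out 1 array at a time gave 1 to 2 for PA versus mock and 1 to 2 for IMQ and PA versus PA on this scale, 4 to 5 for the interaction and 4 to 5 for IMQ and PA versus IMQ among all Fc receptors. Reversals concerned uncalled differences near 0. With repeated quantile normalisation Fcer1g against Fcgr2b had an interaction of -0.0153, Fcgr1 against Fcgr2b had -0.0584 and Fcgr3 had -0.0116 for PA versus mock, and Fcgr2b had 0.0901 for IMQ and PA versus mock. With Il6 below 6, Fcgr3 had -0.0259 for PA versus mock and Fcgr2b 0.014 for IMQ and PA versus mock. With Il6 at or above 6, Fcgr1 against Fcgr2b had 0.0052 for IMQ and PA versus PA and -0.0359 for PA versus mock. With 1 array left out, Fcgr1 against Fcgr2b lay between -0.0127 and 0.0201 and Fcgr3 between -0.0111 and 0.0161 for PA versus mock. Over all genes, 331 were called for PA versus mock, against 530 without dim genes, 737 with the variance trend, 150 with only the groups compared, 15 with Il6 below 6, 130 with Il6 at or above 6, 201 and 170 without mock replicate 1 and 2, and 220 and 192 without PA replicate 3 and 4. The interaction had 3015, and 1200 and 1984 in the Il6 sets. The cause of these changes was not tested.

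Same-numbered arrays of different groups deviated together weakly (24 pairs, r from -0.12 to 0.17, 4 of them over 0.1), so the numbers were not taken to pair the samples. With the replicate number as a block, 6 Fc receptors were called for IMQ versus mock, 5 for IMQ and PA versus IMQ, 3 for IMQ and PA versus PA, 3 for IMQ and PA versus mock, 1 for PA versus mock and 4 for the interaction. Over all genes the block gave 7721, 4655, 7885, 8127, 259 and 2942 calls in the same order.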

Other observations

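On chromosome 1, 7 protein-coding genes lie between Fcgr3 and Fcer1g in the RefSeq order, and 6 of them were measured. IMQ raised 0 and lowered 2 of these 6 neighbours, where 34.8% of all genes were called. They were looked at after their values were seen. Sdhc, a subunit of succinate dehydrogenase, changed by -0.43 ± 0.04 (adjusted p = 6.17e-07, limma), and Tomm40l, a paralogue of the mitochondrial import channel, by -0.36 ± 0.06 (adjusted p = 0.000271, limma). Fcer1g itself rose and Fcgr3 fell in the same comparison.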
